A study of Mus musculus with 16 samples.

Results

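Most of the 25 genes described here encode Sm and LSm (Sm-like) proteins of small nuclear ribonucleoproteins (snRNPs) or the U1 and U2 snRNP proteins that share their gene names. Outside the snRNPs are Lsm1, of a cytoplasmic ring, and 3 further LSm-domain proteins (Lsm12, Lsm14a and Lsm14b). The 25 genes were chosen by symbol alone, as every gene named Snrp or Lsm followed by a number that had a mean of at least 10 normalized reads in both deposited tables, with pseudogene names left out. All 25 symbols that matched passed this minimum, out of 14333 genes tested in both tables and 24946 genes listed. The rule itself uses no measured change, but it was set with earlier results of these data known.

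Neural stem cells (NSCs) of the V-SVZ, the ventricular-subventricular niche that lines the lateral ventricles, were cultured from mouse pups whose genotype was labelled Tsc2 mutant/mutant or Tsc2 wild type/wild type. Tsc2 encodes tuberin, a brake on the growth kinase complex mTORC1. Mutant pups carried a conditional Tsc2 allele (Tsc2tm1.1Mjg) that a tamoxifen-inducible Cre driven by the Nestin promoter (Nestin-CRE-ERT2, C57BL/6) recombines, with a red fluorescent Cre reporter. Cells were taken 7 days after tamoxifen, grown with FGF and EGF and passaged once. The labels do not settle whether wild-type pups had the Cre transgene, and recombination reaches only cells in which Cre acted. Each of 4 mutant and 4 wild-type cultures gave 1 total RNA library and 1 polyribosomal RNA library, so there were 4 groups of 4 libraries: mutant total, wild-type total, mutant polyribosomal and wild-type polyribosomal. Ribosomes were held on mRNA with 15 minutes of cycloheximide in every culture. Polyribosomal RNA came from the heavy 3 mL of a gradient of 17.5% to 50% sucrose. No label names the sex or the animal behind a culture, and p-values cover only the spread over cultures, part of which may be technical.

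Normalized reads summed to 65.6 to 73.7 M (megareads) per total RNA library and to 87.4 to 100.5 M per polyribosomal library, and the steps between low values put the depth before scaling at about 24.7 to 139 M and 50.7 to 268 M. By limma, 20.7% of all 14967 genes tested in total RNA were lower in mutant cultures and 19.7% higher. Of 15 NSC genes, 3 were lower in mutant total RNA by limma (Hes5, Fabp7 and Hes1, log2 changes -1.95, -0.65 and -0.36) and 3 higher (Gfap, Sox9 and Slc1a3, 1.16, 0.68 and 0.24), near those shares. Among those that did not pass, Nes, Sox2 and Vim averaged 64434, 29253 and 387270 normalized reads in mutant total RNA, against 58864, 27309 and 351712 in wild-type total RNA. Tsc2 itself had 7076, 6811, 6190.4 and 5592 normalized reads in the mutant total RNA libraries and 7836, 6817, 6232 and 6701 in the wild-type ones, and since reads are summed over the whole gene this does not check the genotype (log2 change -0.10 ± 0.10 SE, limma adjusted p = 0.422). Polyribosomal Tsc2 RNA averaged 8256 ± 1549.7 normalized reads in mutant and 11448 ± 1229 in wild-type cultures (SD, n = 4 each) and was lower (log2 change -0.49 ± 0.15 SE, limma adjusted p = 0.0389). Cultures differed in ways other than the Tsc2 label. The summed level of 14 microglial genes ran from 3317 to 21948 normalized reads in mutant total RNA and from 2973 to 4929 in wild-type total RNA, with mutant cultures 2 and 4 highest. The mean log2 level of 4 Y-linked genes relative to the wild-type mean was 1.03 in mutant culture 1 and between -8.12 and -5.41 in mutant cultures 2 to 4, against -3.18 in wild-type culture 4 and 0.80 to 1.31 in the other wild-type cultures. The mean log2 level of 10 choroid plexus genes relative to the wild-type mean was 1.44, 0.40, 2.63 and 1.40 in mutant cultures 1 to 4 and -0.12 to 0.13 in wild-type cultures in total RNA. Ttr, for transthyretin, averaged 675 normalized reads in mutant and 4.51 in wild-type total RNA, and 4 of the 8 that were tested were higher by limma. Of 14 myelin and oligodendrocyte genes, 12 were higher in mutant total RNA by limma (19.7% of all tested genes), and all 25 S phase genes were lower (20.7%). Their part in the results below was not tested unless stated.

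Splicing removes introns from pre-mRNA in the spliceosome, which is built from the U1, U2, U4, U5 and U6 snRNPs. In the cytoplasm, the SMN complex loads a ring of 7 Sm proteins (B, D1, D2, D3, E, F and G) onto each of the U1, U2, U4 and U5 snRNAs, after the PRMT5 methylosome has methylated some of them. U6 snRNA carries instead a ring of LSm2 to LSm8 in the nucleus, and a ring in which LSm1 takes the place of LSm8 binds the 3' ends of mRNAs in the cytoplasm and helps to start their decapping and decay. LSm10 and LSm11 replace D1 and D2 in the U7 snRNP, which cuts histone pre-mRNAs.

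Sequences just before the annotated starts are shown because most of these genes moved together in total RNA. RefSeq promoter windows (GRCm38.p6) were matched for 20 of the 25 genes. Within 250 bases before a start, the ETS core CGGAAG, searched on both strands (CTTCCG on the other), occurred in 10 of these 20 genes and in 15.3% of the 27025 genes with a window. The E-box CACGTG, which is its own reverse complement and cannot overlap the ETS core, occurred in 1 of the 20 genes (Snrpa, in lower case below) and in 6.86% of all genes. The ETS core was chosen after the windows had been read, so its excess over all genes is no test of enrichment. The 27025 genes also include genes not tested here, and the part of the ETS core in these changes was not tested. Of the 10 genes that hold it, 9 were lower in mutant total RNA by limma and Lsm10 was not called. Of the 10 genes that do not hold it, 7 were lower, among them Snrpf and Lsm2, where 20.7% of all tested genes were lower. The 100 bases before the start are shown for Snrpe, Snrpb2, Lsm5 and Snrpa, which hold it and fell, for Lsm10, which holds it and was not called, for Lsm11, which does not hold it and fell, and for Snrpn, which does not hold it and was not called. They read 5' to 3' on the strand of the gene and capitals mark CGGAAG or CTTCCG. They come from chr1:133610281-133610380 (Snrpe, minus strand), chr2:143062969-143063068 (Snrpb2, plus), chr6:56704700-56704799 (Lsm5, minus), chr7:27196272-27196371 (Snrpa, minus), chr4:126096553-126096652 (Lsm10, plus), chr11:45944936-45945035 (Lsm11, minus) and chr7:60140226-60140325 (Snrpn, minus). In GENCODE M21 the last 11 bases of the Snrpe and Lsm5 windows lie in an exon of a longer transcript. So do the last 30 bases of the Snrpb2 and Lsm10 windows, and both marked cores of Snrpb2 fall in its exon bases. The 100 bases before the start of Snrpd2 and of Snrpc, not shown, hold the core and lie wholly in an exon.
Snrpe: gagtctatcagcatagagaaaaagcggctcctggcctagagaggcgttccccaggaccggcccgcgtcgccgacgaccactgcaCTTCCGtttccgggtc
Snrpb2: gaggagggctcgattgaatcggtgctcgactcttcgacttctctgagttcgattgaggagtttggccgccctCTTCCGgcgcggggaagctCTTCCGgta
Lsm5: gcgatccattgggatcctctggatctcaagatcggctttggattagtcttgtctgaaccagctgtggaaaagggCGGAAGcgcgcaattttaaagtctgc
Snrpa: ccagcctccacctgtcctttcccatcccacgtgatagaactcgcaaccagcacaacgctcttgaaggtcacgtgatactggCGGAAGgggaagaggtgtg
Lsm10: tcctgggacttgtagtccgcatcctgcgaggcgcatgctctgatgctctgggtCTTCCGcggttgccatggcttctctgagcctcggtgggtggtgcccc
Lsm11: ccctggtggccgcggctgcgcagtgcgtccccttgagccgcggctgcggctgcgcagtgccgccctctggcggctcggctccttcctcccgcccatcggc
Snrpn: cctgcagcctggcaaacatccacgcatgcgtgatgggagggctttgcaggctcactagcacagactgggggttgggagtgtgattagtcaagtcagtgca

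The first question was whether the levels of these mRNAs differed between mutant and wild-type NSCs. In total RNA 20 of the 25 genes were lower in mutant cultures and 0 were higher (limma adjusted p under 0.05), where 20.7% of all 14967 tested genes were lower and 19.7% higher (40.3% in either direction). Without the adjustment, 22 were lower and 0 higher at p under 0.05. The median log2 change of the 25 was -0.49, beside 0.01 for all tested genes, and 24 of 25 changes were below 0. For 22 of the 25 all mutant cultures lay below all wild-type cultures, which held for 20.3% of all tested genes, and for 0 they lay above, as for 17.8% of all tested genes. In bulk samples, fewer cells of a type and less RNA per cell cannot be told apart. The 20 calls were kept when any single culture was left out.

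All 7 Sm core genes fell in total RNA. Snrpb, which encodes SmB, had 18851, 22236, 15333 and 19694 normalized reads in mutant cultures, against 27353, 26082, 26549 and 24372 in wild-type cultures (log2 change -0.47 ± 0.11 SE, limma adjusted p = 0.00955). Snrpd1, for SmD1, was at 4175, 5674, 3765 and 5413 in mutant cultures and at 7597, 8111, 7956 and 7464 in wild-type cultures (log2 change -0.73 ± 0.13 SE, limma adjusted p = 0.00377). Neither gene's mutant values reached its lowest wild-type value. For Snrpd2, the SmD2 gene, the mutant libraries held 13856, 15218, 11388 and 15470.5 and the wild-type libraries 19029.7, 20833, 21059 and 20199 (log2 change -0.55 ± 0.10 SE, limma adjusted p = 0.00461). Snrpd3, for SmD3, had 4432, 5868, 4188 and 5913 in mutant and 8249, 8157, 7118 and 7836 in wild-type libraries (log2 change -0.64 ± 0.12 SE, limma adjusted p = 0.00498). In both, mutant culture 3 was lowest, as it was for 22 of the 25 genes.

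Snrpe, for SmE, was at 4022, 5169, 3536 and 4978 normalized reads in mutant total RNA and at 6284, 7614, 7174 and 7139 in wild-type total RNA (log2 change -0.69 ± 0.13 SE, limma adjusted p = 0.00423). Snrpf, for SmF (chr10:93583029-93589706, minus strand, GRCm38), showed the largest fall of the ring, with 7423, 9200.5, 5778 and 9252 in mutant cultures and 14058, 13697, 11847 and 13294 in wild-type cultures (log2 change -0.76 ± 0.14 SE, limma adjusted p = 0.00456). Its mutant mean was 59.8% of the wild-type mean. Exons of Ccdc38, on the opposite strand, cover 65.9% of the Snrpf exons and the kit does not mark strand, but Ccdc38 was listed at a mean of only 18.3 normalized reads in mutant and 17 in wild-type total RNA. Snrpg, for SmG, had 4318, 5456, 5006 and 6203 in mutant cultures, against 8894, 7771, 6772 and 8112 in wild-type cultures (log2 change -0.59 ± 0.12 SE, limma adjusted p = 0.0059). The 7 mutant means stood between 59.8% (Snrpf) and 72.9% (Snrpb) of the wild-type means. Per kilobase of median transcript the ring genes ranged from 2933 ± 528 (Snrpd3) to 16390 ± 2458 (Snrpb) normalized reads in mutant and from 4508 ± 295 (Snrpd3) to 22471 ± 1085 (Snrpb) in wild-type total RNA (SD, n = 4 each).

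**Figure D1:**
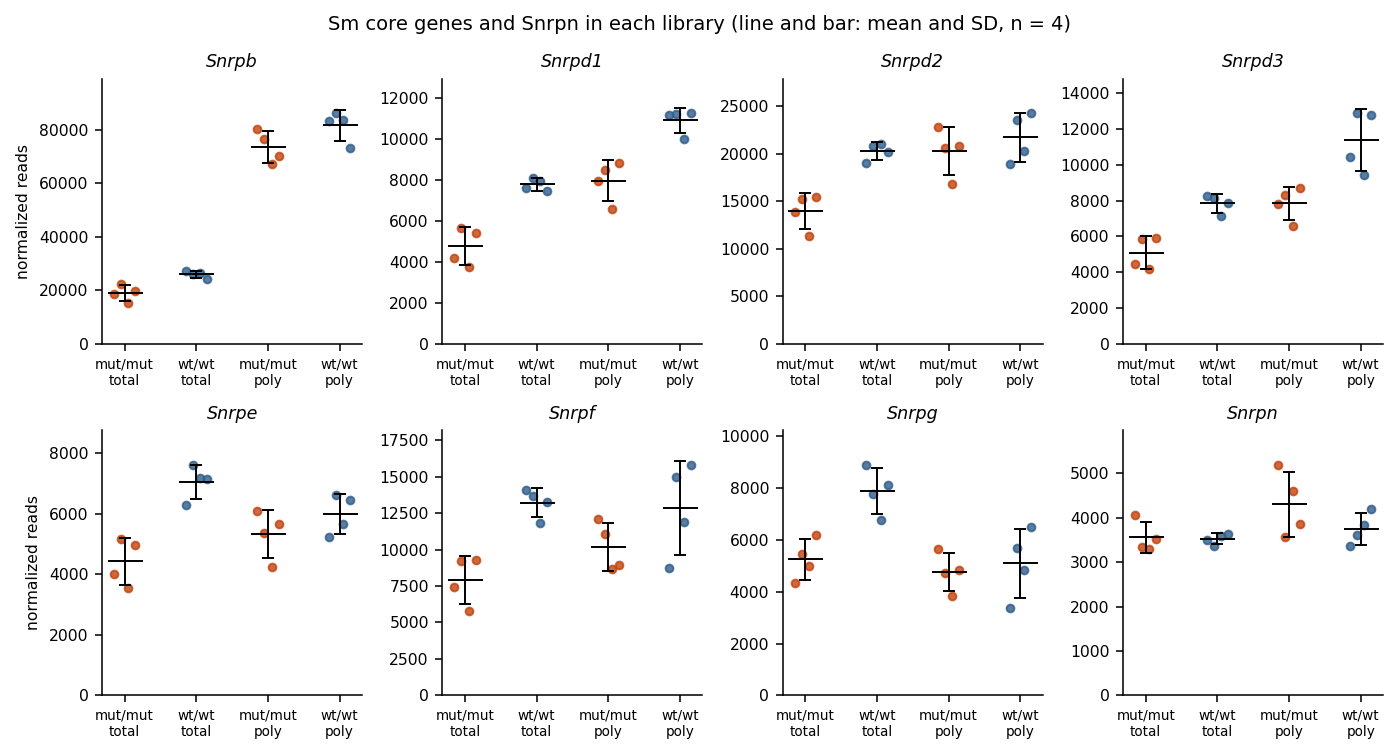
Normalized reads of the 7 Sm core genes and Snrpn, with a point for each library and the mean and SD over the 4 of a group, for mutant (mut/mut) and wild-type (wt/wt) cultures in total and polyribosomal (poly) RNA. In total RNA all mutant points lie below all wild-type points for the ring genes, while Snrpn overlaps. In polyribosomal RNA only Snrpd1 and Snrpd3 do not overlap, and levels are not comparable between the total and polyribosomal tables.

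Snrpn stood apart from the ring. It is an imprinted gene, expressed from the paternal copy, and encodes SmN, which takes the place of SmB mainly in neurons. Total RNA held 4059, 3346, 3294 and 3524 normalized reads of it in mutant cultures and 3491, 3360, 3598 and 3644 in wild-type cultures, and the groups overlapped (log2 change 0.01 ± 0.09 SE, limma adjusted p = 0.94). Per kilobase, Snrpn was at 11% ± 1.8 of the Snrpb level in mutant cultures and at 7.84% ± 0.58 in wild-type cultures in total RNA (SD, n = 4 each). This share was higher in every mutant culture than in any wild-type culture (two-sided exact permutation test, p = 0.0286, the smallest that 4 against 4 allows, in a comparison chosen after the values were seen). Snrpb, its denominator, had already fallen without overlap while Snrpn was not called. The test thus restates the fall of Snrpb and is no separate result about Snrpn. In polyribosomal RNA the share was 3.39% ± 0.57 in mutant and 2.68% ± 0.44 in wild-type cultures (SD, n = 4 each), a difference that did not pass the same exact permutation test (p = 0.114). The mean log2 level of 14 neuron genes relative to the wild-type mean was 0.48, 0.01, 0.48 and 0.16 in mutant cultures 1 to 4 and -0.19 to 0.21 in wild-type total RNA. The shares were highest in mutant cultures 1 and 3, 12.5% and 12.4%, against 8.72% and 10.4% in mutant cultures 2 and 4. Mutant cultures 1 and 3 also had the lowest Snrpb, 18851 and 15333 normalized reads, against 22236 and 19694 in mutant cultures 2 and 4. Snrpn itself was highest in mutant culture 1 (4059) and lowest in mutant culture 3 (3294). By limma 3 of the 14 neuron genes were higher in mutant total RNA (19.7% of all tested genes), namely Stmn2, Gad1 and Elavl3 (log2 changes 2.63 ± 0.41, 1.41 ± 0.26 and 0.67 ± 0.17 SE). Dlx2 was lower (-0.93 ± 0.19 SE), as were 20.7% of all tested genes. The part of the neuron genes in the share was not tested. Snurf, which lies on the same transcript, was listed at 2976 in mutant and 3188 normalized reads in wild-type total RNA, so how reads were divided between Snrpn and Snurf is uncertain.

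The 4 genes for proteins particular to U1 or U2 all fell in total RNA. Snrpa encodes U1-A, which binds a stem-loop of U1 snRNA. Its values were 9742, 11146, 7929 and 10037 normalized reads in mutant cultures and 14079, 13353, 13365 and 12819 in wild-type cultures, without overlap (log2 change -0.47 ± 0.10 SE, limma adjusted p = 0.00722). Snrpc, for U1-C, which helps U1 to recognise the 5' splice site, averaged 7102 ± 914 normalized reads in mutant and 9976 ± 1143 in wild-type cultures (SD, n = 4 each) (log2 change -0.49 ± 0.11 SE, limma adjusted p = 0.00898). The U2 pair Snrpa1 (U2-A') and Snrpb2 (U2-B'') had log2 changes of -0.54 ± 0.14 and -0.44 ± 0.11 SE, and their mutant means were 69.5% and 73.3% of the wild-type means.

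All 7 genes of the LSm2 to LSm8 ring of U6 fell as well, and the 2 largest falls of the whole set were here. Lsm7 lies at chr10:80852821-80855209 (minus strand) and Lsm5 at chr6:56701063-56704710 (minus) in GRCm38, per GENCODE M21. Lsm7 had 3468, 4067, 3229 and 4558 normalized reads in mutant cultures, against 6789.9, 6819, 6506 and 6762 in wild-type cultures (log2 change -0.82 ± 0.11 SE, limma adjusted p = 0.00254). The wild-type values lay close together and no mutant value reached them. Lsm5 had 935, 1208, 901 and 1159.9 in mutant and 1845, 1943, 1831 and 1629 in wild-type cultures (log2 change -0.79 ± 0.12 SE, limma adjusted p = 0.00276). Lsm3 was at 2629.6, 3157, 2266 and 3332 in mutant and 4158, 4300.4, 4427 and 4039 in wild-type cultures (log2 change -0.59 ± 0.12 SE, limma adjusted p = 0.00555). Lsm8, the subunit that makes the ring nuclear, was at 2219.6, 2719.9, 2210.2 and 2712 in mutant cultures and 3363, 3613, 3365 and 3188 in wild-type cultures (log2 change -0.46 ± 0.10 SE, limma adjusted p = 0.0062). Again no mutant value reached the wild-type range. Lsm2, Lsm4 and Lsm6 changed by -0.74 ± 0.16, -0.45 ± 0.11 and -0.45 ± 0.11 SE on the log2 scale. Lsm4, the most abundant of the ring per kilobase, averaged 22844 ± 2818 in mutant and 31156 ± 3398 normalized reads per kilobase in wild-type total RNA (SD, n = 4 each).

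Lsm1, the subunit that makes the ring cytoplasmic, did not pass the threshold. It had 1530.4, 1587, 1328 and 1581 normalized reads in mutant cultures and 1534, 1951, 1844 and 1692 in wild-type cultures, and the ranges overlapped (log2 change -0.22 ± 0.10 SE, limma adjusted p = 0.113). Leaving out wild-type culture 1 put it past the threshold (log2 change -0.28, limma adjusted p = 0.0481). Of the U7 pair, Lsm11 fell, with 1502, 1701, 1319 and 1710.3 in mutant cultures, against 2369, 2043, 2158 and 1848 in wild-type cultures (log2 change -0.44 ± 0.11 SE, limma adjusted p = 0.014). Lsm10 averaged 1241 ± 92.8 normalized reads in mutant and 1329 ± 61.7 in wild-type cultures (SD, n = 4 each) and did not pass (log2 change -0.10 ± 0.09 SE, limma adjusted p = 0.382). Lsm12, an LSm-domain protein outside these rings, fell too, with 1847, 2176, 1472 and 1967 in mutant and 2661, 2783, 2785 and 2584 in wild-type cultures (log2 change -0.55 ± 0.12 SE, limma adjusted p = 0.00641). Lsm14a and Lsm14b, scaffolds of cytoplasmic RNA granules that repress translation, lay just outside the threshold with log2 changes of -0.21 ± 0.08 and -0.22 ± 0.08 SE (limma adjusted p = 0.055 and 0.056), though all their mutant values were below all their wild-type values.

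**Figure D2:**
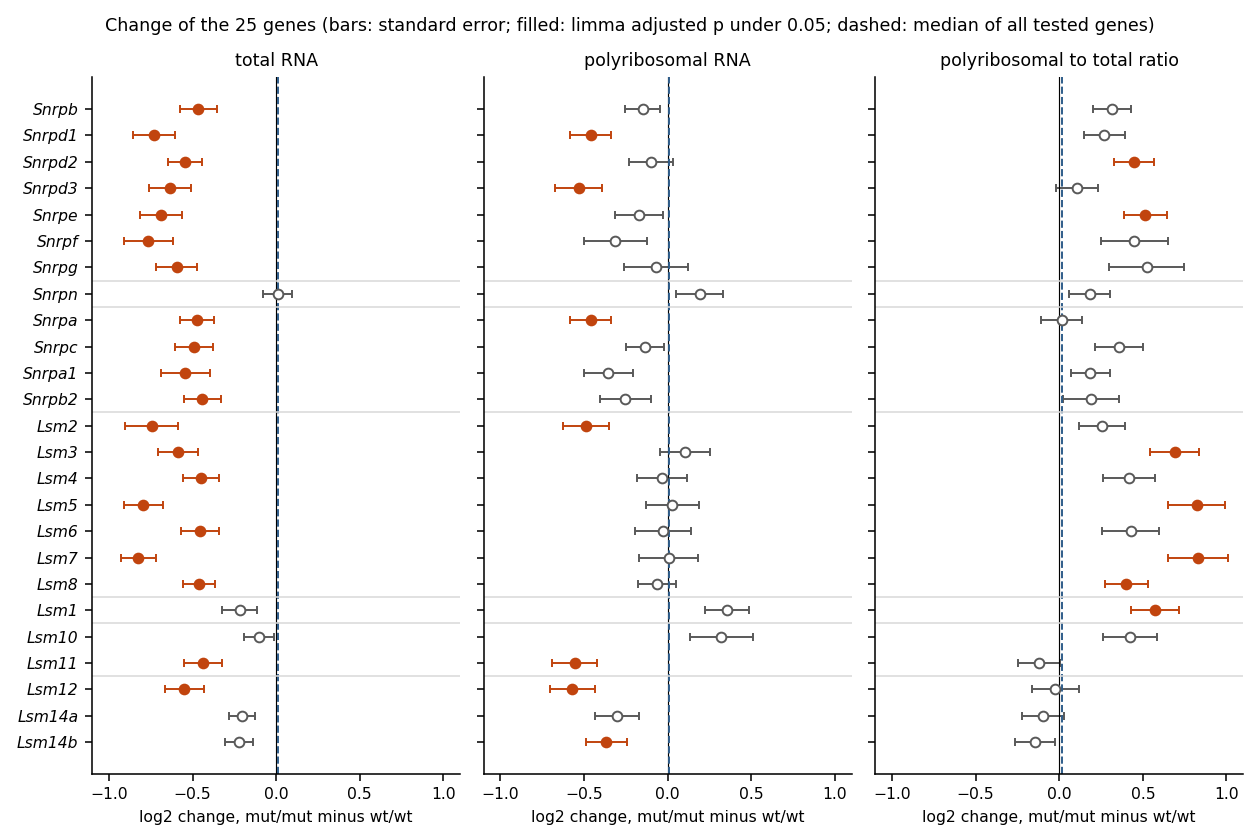
Log2 change of each of the 25 genes in mutant minus wild-type cultures, with its standard error, in total RNA, polyribosomal RNA and the ratio of the 2, grouped by role. Filled points passed a limma adjusted p of 0.05 over all tested genes, and the dashed line is the median of all tested genes. The 20 filled points in total RNA are all below 0, as are the 7 in polyribosomal RNA, and the 7 for the ratio are all above 0.

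The size of the fall differed between mutant cultures. Relative to the wild-type mean, the mean log2 level of the 7 Sm core genes in total RNA was -0.75, -0.43, -0.91 and -0.44 in mutant cultures 1 to 4, against -0.05 to 0.04 in wild-type cultures. The LSm2 to LSm8 genes gave -0.74, -0.44, -0.87 and -0.42 in mutant cultures and -0.08 to 0.04 in wild-type cultures. The mean of the 25 S phase genes was -0.91, -0.31, -1.36 and -0.53 in the same mutant cultures and -0.17 to 0.12 in wild-type cultures. Mutant cultures 1 and 3 were thus lowest for both rings and for the S phase genes, and the part of the S phase genes in the fall was not tested. Without mutant cultures 1 and 3 the Sm and LSm genes gave 14 lower calls, and without mutant cultures 2 and 4, which had the high microglial level, 21. With the Y-linked level added as covariate 7 calls remained, namely Lsm5, Lsm7, Snrpd1, Snrpd3, Snrpe, Snrpf and Snrpg, while the median log2 change of the 25 was -0.52. That level was lowest in mutant cultures 2 to 4 and highest in mutant culture 1 and wild-type cultures 1 to 3. It thus ran largely with the Tsc2 label, and a fit with this covariate cannot fully separate them. Calls over all genes, in either direction, went from 6035 to 2296 without mutant cultures 1 and 3. They went to 1063 with the Y-linked covariate.

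The next question was whether the same mRNAs were lower in the polyribosomal fraction. There 7 of the 25 genes were lower and 0 higher (limma adjusted p under 0.05), where 11.9% of 14412 tested genes were lower and 11.7% higher (23.6% in either direction), and at an unadjusted p under 0.05 the counts were 9 and 1. The median log2 change was -0.15, beside 0.01 for all tested genes, and 19 of 25 changes were below 0. All mutant values lay below all wild-type values for 7 genes (14.6% of all tested genes) and above them for 1, Lsm1 (13.3% of all tested genes). The count rested on single cultures: 3 genes were lower without mutant culture 3, and 2 without wild-type culture 2. It was 0 with the Y-linked level added as covariate (6 lower and 1 higher at an unadjusted p under 0.05) and 1 without mutant cultures 1 and 3. Calls over all genes, in either direction, went from 3403 to 43 and to 1168 under the same settings.

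Of the Sm ring, Snrpd3 and Snrpd1 fell in polyribosomal RNA. Snrpd3 had 7803, 8306, 6568 and 8711 normalized reads in mutant cultures and 10431, 12857, 9439 and 12756 in wild-type cultures (log2 change -0.53 ± 0.14 SE, limma adjusted p = 0.0198). Snrpd1 had 7969, 8497, 6595 and 8821 in mutant cultures, against 11182, 11221, 9996 and 11242 in wild-type cultures (log2 change -0.46 ± 0.12 SE, limma adjusted p = 0.0205). Both sets were free of overlap. Snrpb held 80481, 76678, 67309 and 70315 in mutant and 83466, 86146, 83738 and 73398 in wild-type cultures (log2 change -0.15 ± 0.10 SE, limma adjusted p = 0.314). Snrpf was at 12075, 11079.5, 8635 and 8911 in mutant cultures and 8729, 14999.6, 11857 and 15810.1 in wild-type cultures (log2 change -0.31 ± 0.19 SE, limma adjusted p = 0.238). Wild-type culture 1 was the lowest wild-type value of Snrpf, and of 13 of the 25 genes. Snrpd2, Snrpe and Snrpg had log2 changes of -0.10 ± 0.13, -0.17 ± 0.14 and -0.07 ± 0.19 SE, with overlapping groups, and the changes of Snrpd2 and Snrpg turned positive (0.024 and 0.053) when libraries were scaled by their total alone.

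Lsm12, Lsm11 and Snrpa were the other falls with the smallest p. Lsm12 had 1617, 2071, 1765 and 1528 normalized reads in mutant and 2394, 2559, 2517 and 2856 in wild-type polyribosomal RNA (log2 change -0.57 ± 0.13 SE, limma adjusted p = 0.0122). Lsm11 had 2444, 3002, 2086 and 2263 in mutant and 3661, 3543, 3615 and 3457 in wild-type cultures (log2 change -0.56 ± 0.13 SE, limma adjusted p = 0.0133). Snrpa held 36537, 35068, 29312 and 28216 in mutant cultures, against 49005, 44088, 43912 and 40034 in wild-type cultures (log2 change -0.46 ± 0.12 SE, limma adjusted p = 0.0192). For all 3 the mutant values lay below the wild-type values, and the calls for Lsm11 and Lsm12 were kept whichever single culture was left out. Lsm2 and Lsm14b also passed, with log2 changes of -0.49 ± 0.13 and -0.37 ± 0.12 SE, whereas the other U6 ring genes Lsm3 to Lsm8 stood between -0.06 and 0.10 (those of Lsm4, Lsm6 and Lsm8 were 0.092, 0.098 and 0.063 with scaling by library total). Snrpn had 5190.1, 3569, 4594 and 3869 in mutant and 3359, 3604, 3831 and 4187 in wild-type cultures (log2 change 0.19 ± 0.14 SE, limma adjusted p = 0.347). Snrpa1, Snrpb2, Snrpc and Lsm14a ranged from -0.36 to -0.13 and Lsm10 was at 0.32 ± 0.19 SE, and none of these passed.

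The ratio of polyribosomal to total RNA, which the study used as a measure of translational efficiency, was then compared as the interaction of genotype and fraction, with culture as a block. Of the 25 genes 7 had a higher ratio in mutant cultures and 0 a lower one (limma adjusted p under 0.05), where 5.07% of 14333 genes were higher and 7.89% lower (13% in either direction), and at an unadjusted p under 0.05 the counts were 15 and 0. The median log2 change of the ratio was 0.36, beside 0.01 for all tested genes, and 21 of 25 changes were above 0. The 7 were Lsm1, Lsm3, Lsm5, Lsm7, Lsm8, Snrpd2 and Snrpe. These calls depended on the fit. Without the block, with limma's variance trend and robust moderation switched off, with the Y-linked level added as covariate, and without mutant cultures 1 and 3, 0 of the 25 and 0 of all genes passed, and 11, 11, 13 and 6 of the 25 were higher at an unadjusted p under 0.05. The median log2 change of the ratio over the 25 was 0.36, 0.36, 0.44 and 0.18 in these settings, in the same order.

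Ratios within a culture are given on a log2 scale relative to the median gene of that culture. Lsm7 was at 0.83, 0.27, 0.46 and 0.11 in the 4 mutant cultures and at -0.93, -0.26, -0.33 and -0.23 in the wild-type cultures (log2 change 0.83 ± 0.18 SE, limma adjusted p = 0.0109). Its polyribosomal reads, 5371, 4324, 3806 and 4154 in mutant and 3045, 5082, 4625 and 5049 in wild-type cultures, overlapped, while its total RNA values did not. Lsm5 was at 0.32, -0.12, 0.14 and 0.06 in mutant and -1.06, -0.95, -0.71 and -0.26 in wild-type cultures (log2 change 0.82 ± 0.17 SE, limma adjusted p = 0.00873), with polyribosomal reads of 1018, 980, 850.2 and 1021 in mutant and 756, 898, 999.9 and 1185 in wild-type cultures. Lsm3 was at 0.20, -0.33, 0.09 and -0.15 in mutant and -1.08, -0.68, -0.69 and -0.61 in wild-type cultures (log2 change 0.69 ± 0.15 SE, limma adjusted p = 0.00997), and its polyribosomal reads were 2630.4, 2217, 2067 and 2522 in mutant and 1677, 2407, 2443 and 2316 in wild-type cultures. For these 3 genes, below the median gene in all wild-type cultures, the ratio calls were kept whichever single culture was left out. The other calls were less stable: of the 8 single omissions, those of Lsm1 and Lsm8 were kept in 4, that of Snrpd2 in 5 and that of Snrpe in 6.

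Snrpe had relative log2 ratios of 0.80, 0.23, 0.49 and 0.43 in mutant and -0.04, -0.04, -0.18 and 0.05 in wild-type cultures (log2 change 0.51 ± 0.13 SE, limma adjusted p = 0.0173), and polyribosomal reads of 6098, 5359, 4235 and 5662 in mutant and 5219, 6629.7, 5643 and 6458 in wild-type cultures. Snrpd2 had ratios of 0.92, 0.62, 0.79 and 0.68 in mutant and 0.22, 0.34, 0.11 and 0.46 in wild-type cultures (log2 change 0.44 ± 0.12 SE, limma adjusted p = 0.0232), and reads of 22805, 20656, 16832 and 20813 in mutant and 18881, 23507, 20278 and 24242 in wild-type cultures. Neither ratio overlapped between genotypes, while both sets of reads did. Lsm8 came closest to the threshold, with ratios of 0.85, 0.46, 0.82 and 0.56 in mutant and 0.24, 0.19, 0.09 and 0.47 in wild-type cultures (log2 change 0.40 ± 0.13 SE, limma adjusted p = 0.0498). Its polyribosomal reads were 3484, 3297, 3347 and 3375 in mutant and 3379.6, 3694, 3198 and 3856 in wild-type cultures. The ratios of Lsm8 touched, since mutant culture 2 lay just below wild-type culture 4. Lsm1 differed from the other 6 in that its polyribosomal reads were higher in every mutant culture, 2195, 1722, 2083 and 1814 in mutant and 1358, 1529.5, 1546 and 1664 in wild-type cultures (log2 change 0.35 ± 0.13 SE, limma adjusted p = 0.0709). Its relative log2 ratios were 0.72, 0.30, 0.87 and 0.45 in mutant and 0.05, -0.19, -0.09 and 0.17 in wild-type cultures (log2 change 0.57 ± 0.14 SE, limma adjusted p = 0.0167).

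**Figure D3:**
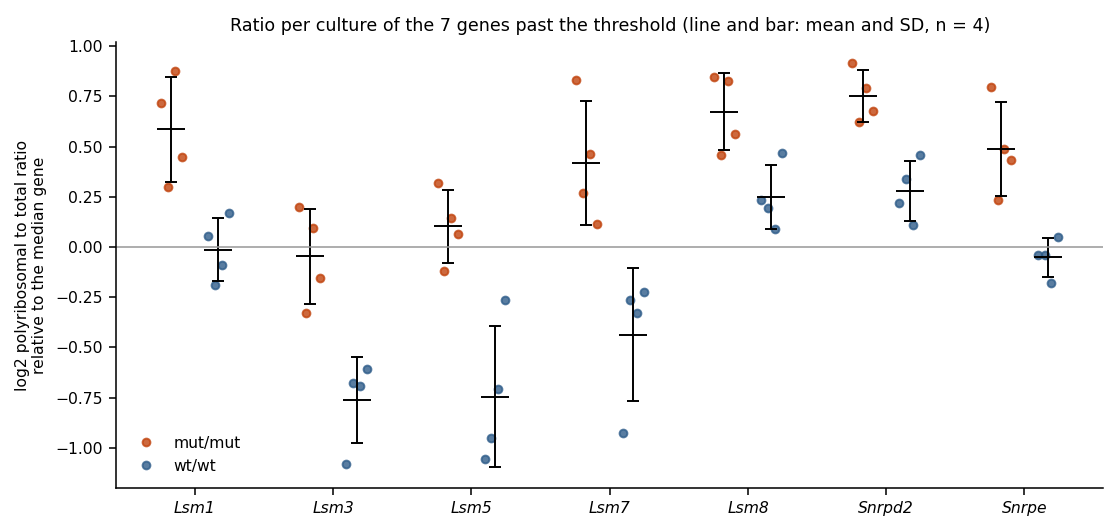
Log2 ratio of polyribosomal to total RNA relative to the median gene of the same culture for the 7 genes past the threshold, 1 point per culture, with the mean and SD of 4 cultures. Mutant (mut/mut) points lie above all wild-type (wt/wt) points for 6 of the 7 genes, and Lsm8 overlaps. Lsm3, Lsm5 and Lsm7 have the lowest wild-type ratios.

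Across the 25 genes the ratio relative to the median gene was above 0 for 24 in mutant and for 18 in wild-type cultures, as a description with no test. It was highest for Snrpb, at 2.18 ± 0.18 in mutant and 1.83 ± 0.04 in wild-type cultures, and for Snrpa, at 1.95 ± 0.19 in mutant and 1.91 ± 0.08 in wild-type cultures (log2, SD, n = 4 each). Among the lowest were Lsm3, at -0.05 ± 0.24 in mutant and -0.76 ± 0.21 in wild-type cultures, and Lsm5, at 0.10 ± 0.18 in mutant and -0.74 ± 0.35 in wild-type cultures. The range over the 25 genes was 2.22 in mutant and 2.67 in wild-type cultures. For 8 of the 25, among them Snrpb and Lsm4, which did not pass the test, the ratio was higher in all mutant cultures than in any wild-type culture, as it was for 8.7% of all genes, and for 0 it was lower in all mutant cultures, as for 10.4% of all genes.

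Coding length ran alongside these ratio changes. Sm and LSm proteins are small, and 15 of the 25 genes have a longest annotated coding sequence of 228 to 414 nucleotides, while the other 10 have 546 to 1386. All 7 genes with a higher ratio were among the 15, with a median log2 change of 0.44, and 0 of the 10 longer genes passed (median 0.10). Among all tested genes with a coding sequence of up to 450 nucleotides, a limit set in the gap between both groups after the values were known, 37.9% of 889 had a higher ratio and 0.562% a lower one, with a median of 0.45. Of longer genes 2.61% of 12710 had a higher ratio (median -0.02). The share of short Sm and LSm genes with a higher ratio, 46.7%, is thus to be read against the 37.9% of all short genes. Spearman's coefficient between coding length and the change in ratio was -0.82 over the 25 genes and -0.42 over 13599 genes, which share their libraries and are not independent. With a trend on transcript length removed from each library 4 of the 7 calls remained (Lsm1, Lsm3, Lsm5 and Lsm7). The median of the 25 was then 0.18, against 0.36 without that step. Transcript length ran less closely with the change in ratio, with Spearman's coefficients of -0.62 over the 25 genes and -0.39 over the 13599. A trend on coding length itself was not removed, so the 4 calls are no check on coding length.

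For levels in total RNA the short genes of the set did not follow other short genes as closely. There 13 of the 15 short genes (86.7%) were lower, against 35.0% of 911 short genes in all, and 7 of the 10 longer genes (70%), against 20.3% of 13208 longer genes in all. In polyribosomal RNA 3 of the 15 short genes (20%) were lower, against 5.15% of 894 short genes in all, and 0 were higher, against 21.3%. With the trend on transcript length removed, 21 of the 25 genes were lower in total RNA and 7 in polyribosomal RNA.

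**Figure D4:**
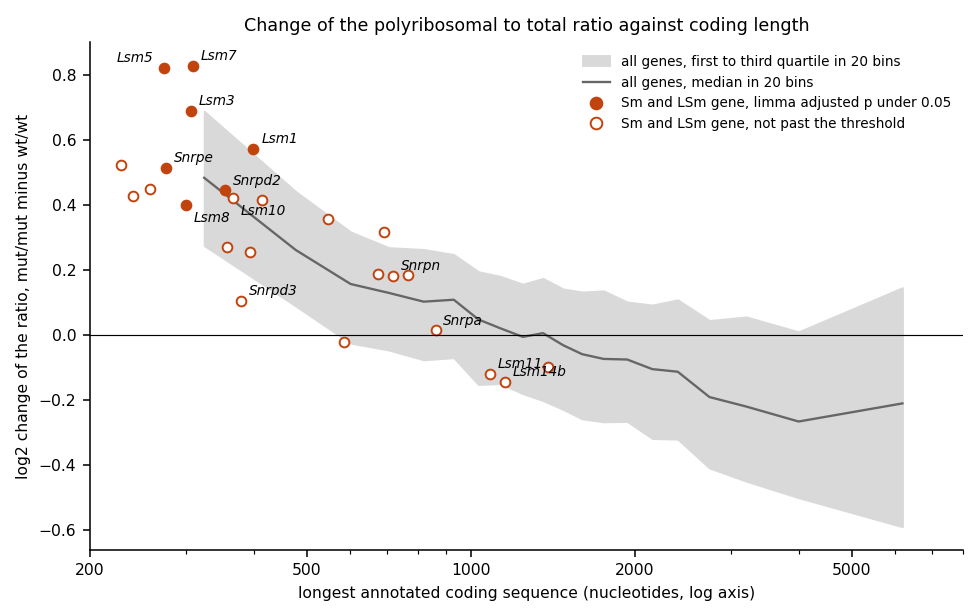
Log2 change of the polyribosomal to total ratio in mutant minus wild-type cultures against the longest annotated coding sequence (log axis), for the 25 genes (circles, filled where the limma adjusted p was under 0.05) and for all genes in 20 bins of equal number (line, median, and grey band, between quartiles). The shortest bin has a median of 0.48 and quartiles of 0.28 and 0.69, and most short Sm and LSm genes lie in or near its band, with Lsm5, Lsm7 and Lsm3 above or at its upper edge.

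Other genes of snRNP assembly and function were examined as lists. Their counts stand beside 20.7% of all tested genes lower and 19.7% higher in total RNA, 11.9% lower and 11.7% higher in polyribosomal RNA, and 7.89% lower and 5.07% higher in ratio, with medians of 0.01. All 9 genes of the SMN complex were lower in mutant total RNA (median log2 change -0.67, against 20.7% of all tested genes). Gemin5, which recognises snRNAs, changed by -0.84 ± 0.15 SE, Gemin2, which holds the Sm proteins, by -0.79 ± 0.15 SE, and Smn1 itself by -0.60 ± 0.13 SE (limma adjusted p = 0.00392, 0.00441 and 0.00697). Smn1 averaged 2673 ± 519.6 normalized reads in mutant and 4006 ± 282 in wild-type cultures (SD, n = 4 each). In polyribosomal RNA 5 of the 9 were lower (11.9% of all tested genes), with Gemin4, Gemin5 and Gemin2 first (-0.93 ± 0.15, -0.90 ± 0.17 and -0.72 ± 0.14 SE), and for the ratio 1, Gemin7, was higher (0.67 ± 0.15 SE).

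The methylosome modifies SmB, SmD1 and SmD3 before assembly, and was listed with pICln and Prmt7. Of these 6 genes 5 were lower in total and 4 in polyribosomal RNA (medians -0.64 and -0.54), and 0 differed in ratio by limma (1 was higher at an unadjusted p under 0.05). Prmt7, another methyltransferase that acts on Sm proteins, changed by -0.92 ± 0.13 SE in total RNA. Wdr77, the partner of PRMT5 that presents the substrate, changed by -0.87 ± 0.13 SE in total and -0.90 ± 0.12 SE in polyribosomal RNA (limma adjusted p = 0.00283 and 0.00165). Clns1a, for pICln, the chaperone that holds Sm proteins until the SMN complex takes them, changed by -0.60 ± 0.10 SE in total RNA, and Prmt5 by -0.67 ± 0.11 SE in polyribosomal RNA. Wdr77 averaged 4704 ± 968 normalized reads in mutant and 8496 ± 518 in wild-type cultures (SD, n = 4 each).

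Among 33 proteins of the U1, U2, U4/U6, U5 and U11/U12 particles, 21 were lower in total RNA (20.7% of all tested genes) and 12 in polyribosomal RNA (11.9%), with medians of -0.31 and -0.30, and 0 were higher in either by limma (0 and 1 at an unadjusted p under 0.05). Snu13, which binds U4 snRNA, Snrnp40 of U5 and Ppih, the cyclophilin of U4/U6, changed by -0.79 ± 0.14, -0.72 ± 0.13 and -0.71 ± 0.13 SE in total RNA. Ddx23, Eftud2 and Snrnp70 led in polyribosomal RNA, at -0.61 ± 0.11, -0.56 ± 0.11 and -0.63 ± 0.13 SE. A higher ratio was called for 5, among them Snrnp27, Phf5a and Snu13 (0.56 ± 0.14, 0.69 ± 0.17 and 0.52 ± 0.14 SE). Of 18 genes of snRNA synthesis, capping, transport and recycling, 9 were lower in total RNA (20.7% of all tested genes, median -0.31) and 0 higher by limma (11 and 0 at an unadjusted p under 0.05). They included the cap-binding genes Ncbp1 and Ncbp2 (-0.65 ± 0.12 and -0.39 ± 0.09 SE) and Coil, the marker of Cajal bodies, where snRNPs mature (-0.61 ± 0.13 SE). In polyribosomal RNA 6 were lower, with Coil, Ints3 and Sart3 first (-0.69 ± 0.13, -0.74 ± 0.14 and -0.58 ± 0.13 SE), and 1, Snapc5, was higher (0.79 ± 0.17 SE). For the ratio Snapc5 was higher (0.61 ± 0.14 SE) and Ints1, of the Integrator complex that cuts snRNA 3' ends, was lower (-0.62 ± 0.14 SE).

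**Figure D5:**
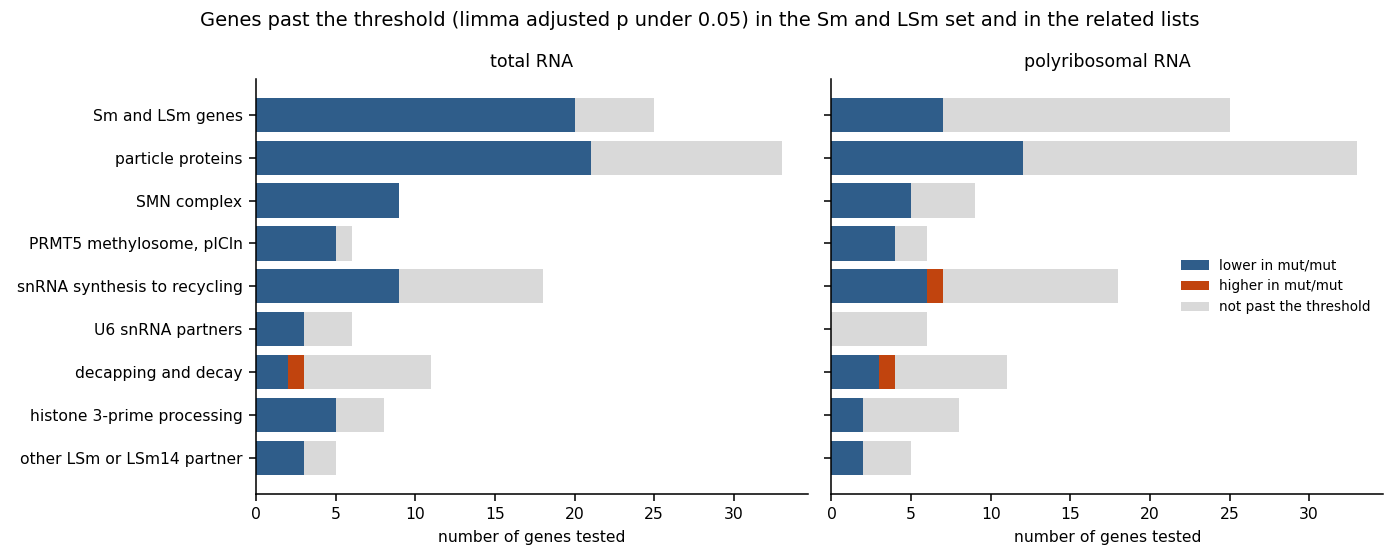
Number of tested genes lower in mutant cultures, higher, and not past the threshold (limma adjusted p under 0.05), for the 25 Sm and LSm genes and 8 related lists, in total and polyribosomal RNA. All 9 genes of the SMN complex are lower in total RNA, and the list of decapping and decay genes has 2 lower and 1 higher of 11.

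Of the partners of U6 snRNA 3 of 6 were lower in total RNA (20.7% of all tested genes), namely the U6 methyltransferase gene Mettl16 (-0.59 ± 0.09 SE), Larp7 (-0.61 ± 0.16 SE) and the U6 trimming enzyme gene Usb1 (-0.26 ± 0.07 SE). None of the 6 passed in polyribosomal RNA by limma, where 1 of 6 was lower at an unadjusted p under 0.05, and Larp7 had a higher ratio (0.49 ± 0.14 SE). The 11 genes listed for mRNA decapping and decay, not all of which act with the LSm1 to LSm7 ring, moved less together, with a median of -0.03 in total RNA. Dcps, the scavenger decapping enzyme, and Dcp2, the decapping enzyme, were lower (-0.58 ± 0.10 and -0.57 ± 0.15 SE), and Pnrc1, a regulator of decapping, was higher (0.89 ± 0.22 SE). In polyribosomal RNA Dcp2, Dcp1a and Patl1 were lower and Pnrc1 higher, and in ratio Patl1, which joins the LSm1 to LSm7 ring to the decapping enzyme, and the decapping scaffold gene Edc4 were lower (-0.44 ± 0.12 and -0.45 ± 0.13 SE).

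Of 8 genes that work with the U7 snRNP on histone mRNA 5 were lower in total (20.7% of all tested genes) and 2 in polyribosomal RNA (11.9%), with medians of -0.51 and -0.46. Those in polyribosomal RNA were Slbp and Sympk (-0.54 ± 0.14 and -0.62 ± 0.17 SE). Slbp, which binds the histone stem-loop and is also on the S phase list, changed by -0.65 ± 0.14 SE in total RNA, Eri1, an exonuclease of the stem-loop, by -0.62 ± 0.14 SE, and Cpsf3, the nuclease of the cut, by -0.37 ± 0.09 SE. Of 5 further genes, listed for an LSm domain or a possible link to LSm14, Ddx1, Fam98a and Naa38 were lower in total RNA (-0.55 ± 0.11, -0.59 ± 0.13 and -0.41 ± 0.09 SE). A link of Ddx1 and Fam98a to LSm14 was not checked here. In polyribosomal RNA Atxn2l and Fam98a were lower (-0.77 ± 0.22 and -0.60 ± 0.18 SE). Naa38 had a higher ratio (0.66 ± 0.14 SE) and Atxn2l a lower one (-0.73 ± 0.16 SE). The coding sequences behind these list members differ in length, and the part of length in their ratios was not tested here.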

How the data were processed

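Total and polyribosomal poly(A) RNA of 8 cultures was sequenced as 16 paired-end libraries with a kit that keeps no strand. The authors trimmed reads, aligned them with STAR to mm10 and divided gene counts by DESeq2 size factors, so the deposited values are a normalized signal per gene (reads after scaling). The read counter and the annotation are not named in the sources used here. Total and polyribosomal tables were normalized separately, and levels were compared only within a table. The genes described and the lists were chosen with earlier results of these data known.

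Of 24972 rows per table, 26 with a date in place of a gene name were left out. Genes with a mean of at least 10 were tested on log2(value + 1) with limma 3.58.1 (R 4.3.3, variance trend, robust moderation) and Benjamini-Hochberg adjustment over all tested genes at 0.05. All log2 changes refer to log2(value + 1), so that those of low genes are understated. The ratio was the interaction of genotype and fraction over the 16 libraries with culture as a block. The total and polyribosomal library of a culture deviated together (correlations 0.233 to 0.731), while wild-type and mutant cultures of 1 number are different cultures. Single shares were compared by exact permutation (scipy 1.17.1). The code was tested on simulated data. Every member is named, with values in every library for the Sm core, Snrpn, the 4 smallest p per comparison and every gene past the threshold for the ratio. From each list, up to 3 genes with the smallest p and up to 2 against its majority are named. Coding lengths come from GENCODE M21 and promoters from RefSeq (GRCm38.p6). Per-kilobase levels divide by the median transcript length.

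Sequencing depth limits these abundant genes little, and precision is set by 4 cultures per genotype. Alternatives were the pseudocount, the filter, the scaling, the variance model, a trend on transcript length, a Y-linked covariate, cultures left out singly or in pairs, and the replicate block.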

Additional observations from a re-analysis of the deposited data

Results flagged for a closer look

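In 4 of 100 groups of 4 libraries, 1 library stood apart from the other 3 by Dixon's criterion, and chance gives about 1 in 20. Lsm3 had 1677 normalized reads in wild-type polyribosomal culture 1, against 2316 to 2443 in the other 3. Snrpa1 had 6249 in wild-type total culture 1, against 5038 to 5069. Snrpb2 had 7161 in wild-type polyribosomal culture 1, against 5406 to 5666. Snrpd1 had 9996 in wild-type polyribosomal culture 3, against 11182 to 11242.

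For 7 genes the change in polyribosomal RNA differed from the change in total RNA by limma's interaction term, all in the same direction. The difference, polyribosomal minus total on the log2 scale, was 0.57 for Lsm1, 0.69 for Lsm3, 0.82 for Lsm5, 0.83 for Lsm7, 0.40 for Lsm8, 0.44 for Snrpd2 and 0.51 for Snrpe.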

How the results depend on the processing

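Lower calls among the 25 genes in total RNA numbered 20 or 21 under all alternatives except the Y-linked covariate (7) and the omission of mutant cultures 1 and 3 (14), and leaving out single cultures gave 20 to 21 lower and 0 higher. In polyribosomal RNA 7 were lower, against 3 with library-size scaling, 0 with the Y-linked covariate, 1 without mutant cultures 1 and 3, and 2 to 7 with single cultures left out (3 without mutant culture 3, and 4, 2 and 4 without wild-type cultures 1, 2 and 3). Higher calls there were 1 with library-size scaling, 3 without mutant cultures 2 and 4, and 0 to 1 with single cultures left out. Higher ratios numbered 7, against 0 without limma's trend and robust moderation, 0 with the Y-linked covariate, 0 without mutant cultures 1 and 3, 4 with the length trend removed, and 3 to 9 with single cultures left out (3 without mutant culture 1, and 4 and 3 without wild-type cultures 2 and 3). The cause was not tested, and the Y-linked level ran largely with the Tsc2 label.

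The replicate number used as a block across genotypes, which share only a number (correlations -0.13 to 0.13), gave 20 lower genes in total and 6 in polyribosomal RNA. With no replicate block for the ratio, 0 of the 25 and 0 of all genes passed (limma, 11 of the 25 at an unadjusted p under 0.05).

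Over all genes, calls in total RNA numbered 6035, 1063 with the Y-linked covariate, 2296 without mutant cultures 1 and 3, and 4195 to 6649 with single cultures left out. In polyribosomal RNA they numbered 3403, 43 with the Y-linked covariate, 5402 without mutant cultures 2 and 4, 1168 without mutant cultures 1 and 3, and 1884 to 4087 with single cultures left out. For the ratio they numbered 1858, 1201 with the length trend removed, 649 to 3282 with single cultures left out, and 0 with no trend or robust moderation, with the Y-linked covariate or without mutant cultures 1 and 3. Scaling by library size moved the median change of all genes to 0.11 in total and 0.13 in polyribosomal RNA, and that of the 25 genes to -0.40 and -0.02.

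Changes that turned sign were called in neither fit. In total RNA these were Lsm10 with the length trend removed (0.0028) and Snrpn without mutant cultures 1 and 3 (-0.036) or single cultures (-0.056 to 0.044). In polyribosomal RNA library-size scaling gave 0.092 for Lsm4, 0.098 for Lsm6, 0.063 for Lsm8, 0.024 for Snrpd2 and 0.053 for Snrpg, the length trend -0.15 for Lsm5 and -0.080 for Lsm7, and the Y-linked covariate 0.053 for Lsm4 and -0.028 for Lsm5. Without mutant cultures 1 and 3 the values were 0.016 for Lsm4, -0.041 for Lsm7 and -0.0067 for Snrpn, and without 2 and 4 it was -0.026 for Lsm5. Leaving out single cultures gave -0.024 to 0.16 for Lsm3, -0.11 to 0.077 for Lsm4, -0.082 to 0.13 for Lsm5, -0.20 to 0.078 for Lsm6, -0.17 to 0.079 for Lsm7 and -0.26 to 0.060 for Snrpg. For the ratio, Lsm11 was 0.091 and Snrpa -0.12 with the length trend removed, Lsm12 was 0.0051 with library-size scaling and 0.10 without mutant cultures 2 and 4, and Snrpa was -0.15 without mutant cultures 1 and 3. Single omissions gave -0.14 to 0.068 for Lsm12 and -0.043 to 0.095 for Snrpa.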
